A study of Mus musculus with 16 samples.

Results

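The comparison described here set the effect of an Nlrc5 guide RNA in cultured B16F10-TDMa cells against its effect in cultured B16F10-TDM cells, gene by gene. B16F10 is a mouse melanoma cell line, and TDMa and TDM are the names of the lines derived from it, whose meaning the labels do not give. The libraries formed 4 groups of 2: TDMa with the Nlrc5-targeting guide (TDMa sgNlrc5), TDMa with a scramble guide (TDMa sgScramble), TDM with the Nlrc5 guide (TDM sgNlrc5) and TDM with the scramble guide (TDM sgScramble). All 8 libraries came from transduced cells grown in DMEM with fetal bovine serum, and neither untransduced cells nor other guides were among them. The series title concerns the demethylation and activation of NLRC5. The other 8 libraries of the series, from TDMa tumours, were not used here.

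Within a line, the guide effect is the log2 value with sgNlrc5 minus that with sgScramble. The difference of guide effects is the TDMa effect minus the TDM effect. A positive difference means that a gene stood further up, or less far down, with sgNlrc5 in TDMa than in TDM. Of 13953 genes listed for one or both lines, 12474 were listed for both, and the 11492 whose normalised counts averaged 10 or more in each line were tested. Of the 982 that were left out, 458 were under that minimum in both lines, 220 in TDMa alone and 304 in TDM alone. A further 810 genes were listed for TDMa alone and 669 for TDM alone, and these have no difference.

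NLRC5 is a transactivator of the NLR family that works in the nucleus. It binds no DNA by itself but joins a complex of RFX, NF-Y and CREB proteins on the promoters of MHC class I genes, and it raises the heavy chains, the light chain B2m and parts of the machinery that cuts and loads peptides. Class I molecules present peptides from inside the cell to CD8 T cells, and melanomas, B16F10 among them, are known for low class I levels. Interferons raise Nlrc5 and class I genes too, together with a large set of antiviral genes, so those genes were listed beside the class I genes.

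The class I genes whose difference was higher carried a CCAAT box, the letters bound by NF-Y, near the gene's start. Promoter windows of 300 bases, 250 before the start and 50 after it, were read from RefSeq on GRCm38.p6, an earlier build than the GRCm39 that the submitters name. Such a window was found for 8877 of the 11492 genes tested, and CCAAT was searched on both strands. It was present in 6 of 6 class I genes known as NLRC5 targets, against 43.6% of the tested genes with a window. Over all genes it did not mark the higher ones: it was in 46.0% of the 87 windows of genes called more than 2-fold higher and in 36.2% of the 196 windows of genes more than 2-fold lower. Windows of the class I genes with a higher difference are shown first, with CCAAT, or ATTGG where it lies on the other strand, in capitals.
H2-D1, chr17:35262844-35263143 on the plus strand: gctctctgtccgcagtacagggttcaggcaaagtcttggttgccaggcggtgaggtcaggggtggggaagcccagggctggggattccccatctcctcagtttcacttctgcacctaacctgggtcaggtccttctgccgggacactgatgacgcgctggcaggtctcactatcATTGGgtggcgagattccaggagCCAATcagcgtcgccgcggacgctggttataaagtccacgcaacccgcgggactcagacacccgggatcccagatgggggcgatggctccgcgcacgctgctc
B2m, chr2:122147437-122147736 on the plus strand: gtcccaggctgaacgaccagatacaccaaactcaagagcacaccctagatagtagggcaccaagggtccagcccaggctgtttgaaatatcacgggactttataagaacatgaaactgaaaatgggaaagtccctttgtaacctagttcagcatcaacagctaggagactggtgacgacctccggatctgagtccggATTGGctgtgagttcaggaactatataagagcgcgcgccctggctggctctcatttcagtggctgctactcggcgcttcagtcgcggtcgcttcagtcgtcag
Psmb9, chr17:34187281-34187580 on the minus strand: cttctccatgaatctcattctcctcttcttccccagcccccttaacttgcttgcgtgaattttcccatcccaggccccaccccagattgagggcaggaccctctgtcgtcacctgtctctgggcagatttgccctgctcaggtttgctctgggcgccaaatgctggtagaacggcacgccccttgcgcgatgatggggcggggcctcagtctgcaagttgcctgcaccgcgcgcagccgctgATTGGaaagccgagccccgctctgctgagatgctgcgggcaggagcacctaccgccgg
The start of Tap1 lies head to head with that of Psmb9, so their windows overlap on opposite strands and hold the same CCAAT.

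The listed antiviral genes, counted whether or not their difference was called, often held the letters GAAA, any 2 bases and GAAA again. These letters are the core of the element bound by interferon-activated STAT and IRF factors. Searched on both strands, this core was present in 13 of 28 antiviral interferon-stimulated genes with a window (46.4%) and in 6 of 7 GBPs and immunity-related GTPases (85.7%), against 3.51% of the tested genes with a window. It was present in 13.3% of the 196 windows of genes with a called difference more than 2-fold lower, and in 5.75% of the 87 windows of genes more than 2-fold higher. The motifs were not exclusive: the core was also in 2 of the 6 NLRC5 targets (33.3%), the B2m window above among them, and the Irgm1 and Oas1a windows also hold CCAAT on one strand or the other. A match is a description of letters in this window and not of binding. Irgm1 and Oas1a are shown because both fell with sgNlrc5 in TDMa and both hold overlapping copies of the core, in capitals.
Irgm1, chr11:48871371-48871670 on the minus strand: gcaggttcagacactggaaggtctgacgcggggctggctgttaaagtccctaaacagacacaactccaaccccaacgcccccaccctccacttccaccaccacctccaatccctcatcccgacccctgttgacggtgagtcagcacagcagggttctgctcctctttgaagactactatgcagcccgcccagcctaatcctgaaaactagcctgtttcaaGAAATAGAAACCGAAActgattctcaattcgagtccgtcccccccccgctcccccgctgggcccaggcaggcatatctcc
Oas1a, chr5:120907476-120907775 on the minus strand: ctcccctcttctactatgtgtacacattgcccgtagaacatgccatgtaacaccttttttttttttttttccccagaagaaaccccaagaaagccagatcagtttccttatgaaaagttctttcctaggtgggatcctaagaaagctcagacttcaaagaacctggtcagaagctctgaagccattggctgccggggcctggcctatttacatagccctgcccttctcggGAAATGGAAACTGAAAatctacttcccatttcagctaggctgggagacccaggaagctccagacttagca

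The libraries held 12183889 to 15935149 reads over the listed genes, and the 10 most abundant genes took 5.57% to 6.25% of them. All 7 melanocyte markers looked for (Mitf, Sox10, Tyr, Tyrp1, Dct, Pmel and Mlana) were listed in both lines. Of 6 leukocyte markers only Lyz2 was listed, with 8.72 to 11.2 normalised counts in TDMa sgNlrc5, 48.5 to 53.6 in TDMa sgScramble, 24.6 to 42.7 in TDM sgNlrc5 and 35.0 to 41.5 in TDM sgScramble. Its part in the results below was not tested. Of 4 fibroblast markers only Pdgfra was listed, with 32.6 to 45.5 in TDMa sgNlrc5, 58.4 to 73.3 in TDMa sgScramble, 84.4 to 104 in TDM sgNlrc5 and 93.3 to 109 in TDM sgScramble, and its part was not tested either. Of 2 endothelial markers Pecam1 was listed in TDM alone, with 7.87 to 12.3, and of 3 epithelial markers none was. The labels do not say whether the 2 libraries of a group were separate cultures, so the p-values rest on a spread between samples that may be technical. A guide effect therefore cannot be told apart from a difference between the transduced cell populations. Each line was normalised on its own, so a level can be compared within a line but only roughly between TDMa and TDM.

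The guide effect differed between the lines in 2610 of 11492 genes, 22.7% of those tested (limma, two-sided, Benjamini-Hochberg adjusted p under 0.05). The difference was higher in 1374 genes (12%) and lower in 1236 (10.8%). These shares of all genes are the background for the counts in each gene list below. With the libraries of a line scaled to equal sums, 1089 were higher and 1490 lower, 42.2% higher against 52.6%. The difference exceeded 2-fold in 404 of the called genes, 133 higher and 271 lower, so lower ones were the more frequent among the large differences. In 2604 of the 2610 the 4 differences between TDMa library pairs did not overlap the 4 between TDM pairs, which also held for 45.9% of all genes tested. The TDMa effect was the larger in size in 2409 of the 2610 (92.3%). The same share over all genes was not computed. Over all genes tested the effect already spread more in TDMa (standard deviation 0.48) than in TDM (0.22). The test lets the prior variance change with a gene's abundance, and without this intensity trend 1186 genes were called, 586 higher and 600 lower.

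Most of these genes moved in TDMa and not detectably in TDM. The guide effect was called in 3997 genes in TDMa (34.8%), 2078 higher (18.1%) and 1919 lower (16.7%). It was called in 83 genes in TDM (0.722%), 39 higher (0.339%) and 44 lower (0.383%). The TDM count was 246 without TDM sgNlrc5 replicate 2, 44 and 34 without TDM sgScramble replicate 1 and 2, and 1 without the intensity trend. Of the 2610 genes with a called difference, 2360 had a called effect in TDMa alone, 22 in TDM alone, 13 in both with the same sign, 28 in both with opposite signs and 187 in neither. The standard deviation of the guide effect over genes was 0.48 in TDMa and 0.22 in TDM. Across the 11492 genes, which share the same libraries, the correlation of the effects was -0.05. The plot of the guide effects shows this as a cloud drawn out along the TDMa axis.

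**Figure D1:**
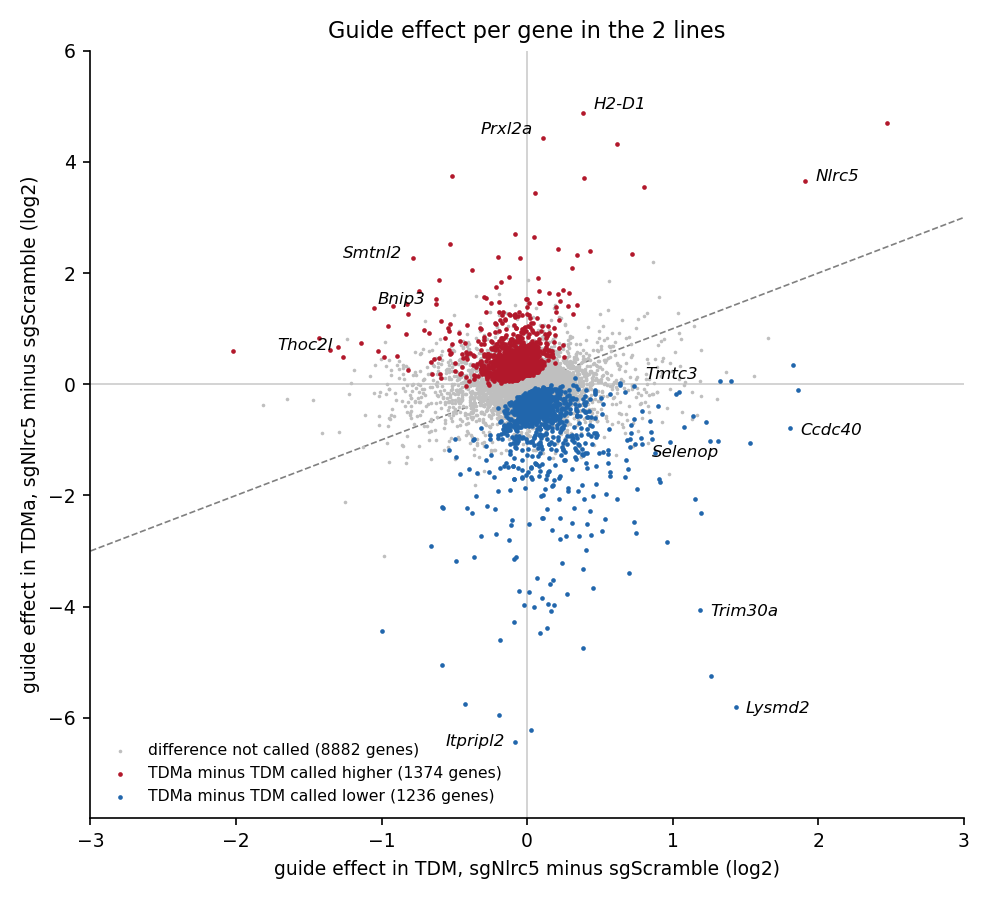
Guide effect (log2, sgNlrc5 minus sgScramble) in TDMa on the y axis against that in TDM on the x axis, 1 point per gene for 11492 genes. Red and blue points have a called difference that is higher (1374) or lower (1236), grey points have none (8882), and on the dashed line both effects are equal. The cloud is wider along the TDMa axis (standard deviation 0.48) than along the TDM axis (0.22).

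Nlrc5 itself (ENSMUSG00000074151), the gene the guide targets, rose in both lines and rose further in TDMa. It had 3146 and 3142 normalised counts in the TDMa sgNlrc5 libraries, 254 and 242 in TDMa sgScramble, 57.4 and 78.6 in TDM sgNlrc5 and 22.9 and 12.7 in TDM sgScramble. Every sgNlrc5 library lay above both sgScramble libraries of its line. The guide effect was 3.66 ± 0.18 (SE) in TDMa and 1.91 ± 0.19 in TDM, and the difference was 1.75 ± 0.26 (adjusted p = 1.4e-05). The sgScramble level was also higher in TDMa than in TDM, with each line scaled on its own. In TDM the counts rested on 134 reads with sgNlrc5 and 38 with sgScramble. Without the intensity trend the difference was still called, while the effect in TDM was not.

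H2-D1 had the largest of all called higher differences, and H2-M3 and Psmb9 were among the 12 largest of genes with a mean of 50 or more in a group and library pairs that did not overlap between the lines. H2-D1 (ENSMUSG00000073411), a classical class I heavy chain, had 3835 and 3847 normalised counts in the TDMa sgNlrc5 libraries, 148 and 113 in TDMa sgScramble, 3389 and 3582 in TDM sgNlrc5 and 2689 and 2647 in TDM sgScramble. Its level with the Nlrc5 guide was similar in both lines as each was scaled, and the TDMa sgScramble libraries were the ones that stood apart, far below the rest. The difference was 4.49 ± 0.11 (adjusted p = 1.1e-20), from effects of 4.88 ± 0.075 in TDMa and 0.38 ± 0.083 in TDM, both of which passed. Without the intensity trend only 1 gene was called in TDM, with opposite signs in the lines. The TDM effect of H2-D1 thus did not pass there.

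B2m (ENSMUSG00000060802), the light chain that every class I molecule needs, had 19294 and 19396 normalised counts in the TDMa sgNlrc5 libraries, 7772 and 6801 in TDMa sgScramble, 3776 and 3814 in TDM sgNlrc5 and 3229 and 3014 in TDM sgScramble. Here the TDMa sgScramble libraries lay above all TDM libraries, as each line was scaled, and the TDMa sgNlrc5 libraries higher still. The difference was 1.13 ± 0.068 (adjusted p = 2e-12), with effects of 1.41 ± 0.045 in TDMa and 0.28 ± 0.050 in TDM. H2-M3, which presents formylated bacterial and mitochondrial peptides, had 109 and 127 normalised counts in the TDMa sgNlrc5 libraries, 20.1 and 2.85 in TDMa sgScramble, 47.2 and 56.8 in TDM sgNlrc5 and 48.5 and 31.8 in TDM sgScramble. The low TDMa sgScramble values differed several-fold between the libraries, and the difference was 3.33 ± 0.67 (adjusted p = 0.00054). It did not pass without the intensity trend, where its adjusted p was 0.115, the highest over its alternatives (lowest 2.36e-07).

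H2-T22, a nonclassical heavy chain, differed by less. It had 1431 and 1515 normalised counts in the TDMa sgNlrc5 libraries, 999.7 and 954 in TDMa sgScramble, 1078 and 1179 in TDM sgNlrc5 and 1095 and 948 in TDM sgScramble, and the difference was 0.45 ± 0.097 (adjusted p = 0.0012). Without the intensity trend it did not pass (adjusted p = 0.0766, the highest over its alternatives, whose lowest was 0.00031). H2-T24 and Mr1, which presents vitamin B metabolites to MAIT cells, did not pass, with differences of 0.76 ± 0.46 (adjusted p = 0.26) and 0.11 ± 0.12 (adjusted p = 0.59). For Mr1 the 95% interval of the difference ran from -0.14 to 0.36, while for the weakly expressed H2-T24 it ran from -0.19 to 1.71 and leaves a wide range. H2 genes share near-identical stretches, so reads may be split between relatives and their separate values are uncertain.

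Of 20 genes listed as class I heavy chains with B2m, 6 were tested, and 4 had a higher and 0 a lower difference, with 2 higher without the intensity trend (median 0.95, against 0.00 over all genes tested). Of 12 genes reported to depend on NLRC5, 6 were tested, and all 6 of these were higher (median 2.27), or 4 without the intensity trend. Of all genes 12% were called higher. The median effect of these 6 was 2.82 in TDMa and 0.35 in TDM. The plot of class I levels shows each of these genes in the 8 libraries.

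**Figure D2:**
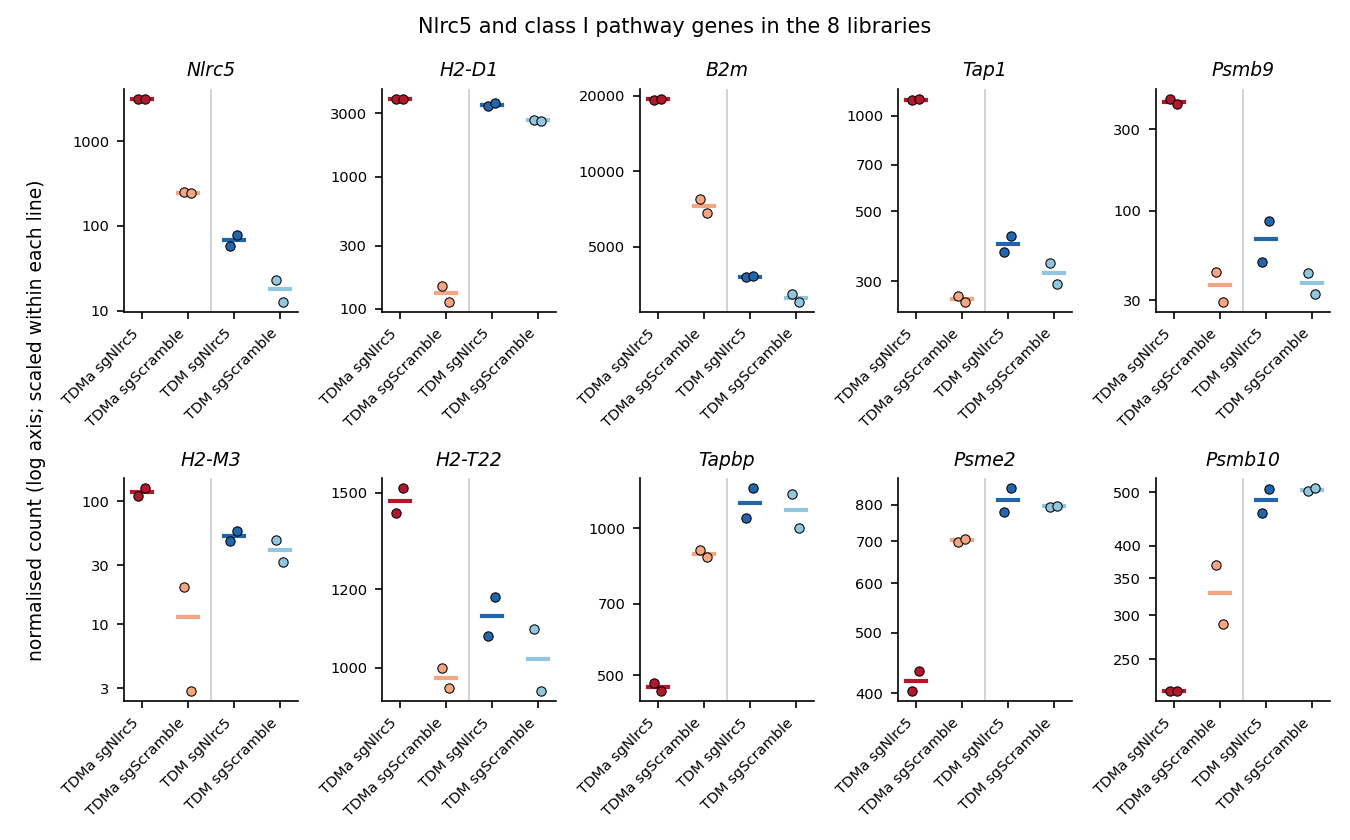
Normalised count (log axis) of Nlrc5 and 9 class I pathway genes in the 4 groups, TDMa left of TDM and sgNlrc5 left of sgScramble. Points are libraries (n = 2 per group) and bars are group means; levels are scaled within a line, so only steps within a line compare. H2-D1 had 148 and 113 normalised counts in TDMa sgScramble and 2647 or more in the other groups, while Tapbp, Psme2 and Psmb10 were lowest in TDMa sgNlrc5.

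The genes that make and load class I peptides went both ways. Of 17 tested, 6 had a higher and 6 a lower difference (70.6% called, against 22.7% of all genes, median -0.23). Without the intensity trend 2 were lower. Psmb9, a catalytic subunit of the immunoproteasome, had 449.7 and 420.5 normalised counts in the TDMa sgNlrc5 libraries, 44.0 and 29.5 in TDMa sgScramble, 50.6 and 87.1 in TDM sgNlrc5 and 43.2 and 32.9 in TDM sgScramble. Its difference was 2.76 ± 0.35 (adjusted p = 1.3e-06), with similar sgScramble levels in both lines. Tap1, a chain of the peptide transporter of the endoplasmic reticulum, had 1118 and 1129 normalised counts in the TDMa sgNlrc5 libraries, 269 and 259 in TDMa sgScramble, 370.1 and 417 in TDM sgNlrc5 and 342 and 294 in TDM sgScramble. Its difference was 1.78 ± 0.14 (adjusted p = 2.1e-10), while its partner Tap2 stood at -0.56 ± 0.27 (adjusted p = 0.16). So the genes of the Psmb9 and Tap1 pair, which share a promoter region, were higher with clear gaps between groups.

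The remaining peptide loading genes with a higher difference were mostly chaperones and helpers of the endoplasmic reticulum. Calr, the chaperone calreticulin, was at 0.53 ± 0.044 (adjusted p = 1.1e-09) and Pdia3, its partner ERp57, at 0.40 ± 0.055 (adjusted p = 4e-06). Lnpep, a peptide-trimming aminopeptidase of endosomes, was at 0.44 and Sec61b, a subunit of the protein channel of the endoplasmic reticulum, at 0.37. Neither of these passed without the intensity trend, where Lnpep had an adjusted p of 0.0711 (lowest over its alternatives 2.48e-05) and Sec61b one of 0.0736 (lowest 7.88e-05).

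Other peptide loading genes went the other way. Tapbp, encoding tapasin, which holds class I molecules at the transporter, had 481 and 464 normalised counts in the TDMa sgNlrc5 libraries, 900.2 and 873 in TDMa sgScramble, 1048 and 1206 in TDM sgNlrc5 and 1173 and 1001 in TDM sgScramble. The TDMa sgNlrc5 libraries lay below all others, and the difference was -0.96 ± 0.11 (adjusted p = 2.3e-07). Psme2 and Psme1, the subunits of the proteasome activator PA28, differed by -0.77 ± 0.11 (adjusted p = 4.9e-06) and -0.43 ± 0.10 (adjusted p = 0.0024). Psmb10, another immunoproteasome subunit, was at -0.51 ± 0.16 (adjusted p = 0.02), and at -0.33 without TDMa sgScramble replicate 1 (adjusted p = 0.158, the highest over its alternatives, whose lowest was 0.00283). Its call also ended without TDM sgNlrc5 replicate 2 (-0.44), without TDM sgScramble replicate 1 (-0.50) or 2 (-0.52) and without the intensity trend. Psme3, of a related activator in the nucleus, was at -0.23 and the peptidase gene Thop1 at -0.24. Psme1, Psme3 and Thop1 did not pass without the intensity trend either, and Thop1 did not without TDM sgScramble replicate 2 (-0.20). Tapbpl, a relative of tapasin, the trimming peptidase gene Erap1 and the chaperone genes Canx and Hsp90ab1 did not pass, at -0.70 ± 0.28, -0.47 ± 0.20, -0.06 ± 0.045 and 0.06 ± 0.042. Of these, Tapbpl (-0.88), Erap1 (-0.65) and Hsp90ab1 (0.09) passed without TDM sgNlrc5 replicate 1, and Erap1 also without TDMa sgNlrc5 replicate 2 (-0.70).

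Genes of the proteins that recruit NLRC5 to promoters were called once. Of 8 tested partners, Creb1, a transcription factor of the cAMP response, had a higher difference, 0.41 ± 0.10 (adjusted p = 0.0043, not passed without the intensity trend). This 1 call is 12.5% of the 8, against 22.7% of all genes. Rfx5, Rfxap, Rfxank, Nfya, Nfyb, Nfyc and Atf1 lay between -0.16 (Nfya) and 0.18 (Rfxap), though with equal sums Nfya passed at -0.20 (adjusted p = 0.0417, the lowest over its alternatives, whose highest was 0.391). Of 2 tested MHC class II genes, H2-DMb1, a chain of the peptide exchange factor, was lower at -0.62 ± 0.18 (adjusted p = 0.015). That call ended without TDMa sgNlrc5 replicate 2 (-0.54), TDMa sgScramble replicate 2 (-0.49) or TDM sgScramble replicate 1 (-0.47), and without the intensity trend.

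Antiviral interferon-stimulated genes gave the most lower differences of any list. Of 52 listed effectors 40 were tested, and of these 29 had a lower and 0 a higher difference (18 lower without the intensity trend). That is 72.5% called, against 22.7% of all genes, of which 10.8% were called lower. All 40 differences were negative (median -1.43), against 5731 of all 11492 genes. The median effect was -1.29 in TDMa, where 35 of the 40 fell, against 16.7% of all genes. In TDM it was 0.14, and 0 of the 40 passed, where 0.722% of all genes did. Their summed normalised counts were 11883 and 11632 in TDMa sgNlrc5 and 26504 and 22593 in TDMa sgScramble. In TDM they were 24570 and 31897 with sgNlrc5 and 27155 and 25093 with sgScramble, so the TDM groups overlapped and the TDMa groups did not.

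The second TDM sgNlrc5 library stood above the first in these genes. Without TDM sgNlrc5 replicate 2 the median difference was -1.08 with 26 lower, and without TDM sgNlrc5 replicate 1 it was -1.84 with 33 lower. In the same 2 cases the median effect in TDM was -0.12 and 0.47, so its sign in TDM depended on which library was kept. Whether that library differed in culture or handling was not tested.

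Oas1a, an oligoadenylate synthetase that senses double-stranded RNA, had 8.99 and 8.72 normalised counts in the TDMa sgNlrc5 libraries, 199.9 and 114 in TDMa sgScramble, 499 and 660.1 in TDM sgNlrc5 and 590.1 and 457 in TDM sgScramble. The difference was -4.09 ± 0.29 (adjusted p = 6.3e-11), and the TDMa groups did not overlap while the TDM groups did. Lgals3bp, a secreted galectin-binding glycoprotein, had 1147 and 1111 normalised counts in the TDMa sgNlrc5 libraries, 4412 and 3927 in TDMa sgScramble, 3926 and 4917 in TDM sgNlrc5 and 4189 and 3884 in TDM sgScramble. Its difference was -2.0 ± 0.096 (adjusted p = 2.5e-14). Trim30a, an interferon-induced ligase of the TRIM family, differed by -5.25 ± 0.49 and Sp100, of the PML nuclear bodies, by -5.13 ± 0.65. Sp100 had 2 reads in TDMa sgNlrc5 against 113 in TDMa sgScramble, a ratio with a 95% interval from 0.00231 to 0.0714. Ifi27 was at -2.34 ± 0.13, though it overlaps Ifi27l2a in the annotation and the sources used here do not give how strand was treated in counting.

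The GBPs and immunity-related GTPases, which attack the vacuoles of intracellular pathogens, were all lower: 7 of 7 tested, with a median of -2.79. Of all genes 10.8% were called lower. Irgm1 had 588 and 558 normalised counts in the TDMa sgNlrc5 libraries, 1862 and 1846 in TDMa sgScramble, 2694 and 4312 in TDM sgNlrc5 and 3054 and 2793 in TDM sgScramble, and its difference was -1.92 ± 0.15 (adjusted p = 3.2e-10). Igtp was at -3.09 ± 0.27, Irgm2 at -2.79 ± 0.27 and Gbp3 at -4.10 ± 0.49. The median difference was -2.50 without TDM sgNlrc5 replicate 2 and -3.29 without TDM sgNlrc5 replicate 1, with 7 of 7 lower each time.

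Of the genes upstream of these effectors, most sensors were lower and most signalling genes were not called. Of 12 tested nucleic acid sensors and adaptors, 7 were lower and 1 higher (66.7% called, against 22.7% of all genes, median -0.44). Without the intensity trend 4 were lower. The 1 higher call ended in several alternatives, among them without TDMa sgNlrc5 replicate 1, TDMa sgScramble replicate 1, TDM sgNlrc5 replicate 1 or TDM sgScramble replicate 1. Ddx58, which encodes the RNA sensor RIG-I, had 318 and 274 normalised counts in the TDMa sgNlrc5 libraries, 1257 and 1005 in TDMa sgScramble, 1196 and 1949 in TDM sgNlrc5 and 1309 and 1207 in TDM sgScramble, a difference of -2.20 ± 0.18 (adjusted p = 8.6e-10). Its relatives Dhx58 and Ifih1 (MDA5) were at -3.17 ± 0.35 and -1.41 ± 0.23, and the endosomal RNA receptor gene Tlr3 at -1.21 ± 0.19.

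Among 21 tested interferon receptors, JAK-STAT and IRF factors, 7 were lower, 0 higher and 14 not called (33.3% called, against 22.7% of all genes, median -0.24). Irf9, the DNA-binding part of the interferon-activated factor ISGF3, was at -1.77 ± 0.21 (adjusted p = 6.3e-07). Usp18, a feedback inhibitor of interferon signalling, had 22.5 and 31.0 normalised counts in the TDMa sgNlrc5 libraries, 212 and 145 in TDMa sgScramble, 233 and 512 in TDM sgNlrc5 and 243 and 174 in TDM sgScramble, a difference of -3.43 ± 0.35 (adjusted p = 4.4e-08).

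NF-kB genes and chemokines followed the same direction on fewer genes. Of 13 tested NF-kB factors, inhibitors and targets, 8 were lower and 1 higher (69.2% called, against 22.7% of all genes, median -0.48). Without the intensity trend 4 were lower. Nfkbia, the inhibitor that NF-kB induces, was at -0.96 ± 0.15, Tnip1 at -0.59 ± 0.093 and the subunit gene Nfkb1 at -0.55 ± 0.082, while Sod2, a mitochondrial superoxide dismutase, was higher at 0.43 ± 0.089 (not passed without the intensity trend). Of 7 tested chemokines and growth factors for leukocytes, 3 were lower (42.9% called, against 22.7% of all genes). Cxcl10, which draws T cells, had 60.7 and 78.5 normalised counts in the TDMa sgNlrc5 libraries, 379.8 and 419 in TDMa sgScramble, 298 and 311 in TDM sgNlrc5 and 304 and 299 in TDM sgScramble, a difference of -2.53 ± 0.19 (adjusted p = 1.9e-10). Ccl5 was at -1.81 ± 0.37 and Csf1, a growth factor of macrophages, at -0.72 ± 0.11. Among 8 tested ligands of checkpoint and NK cell receptors, 1 was called (12.5%, against 22.7% of all genes). It was Lgals9 (galectin-9), at -0.68 ± 0.089.

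**Figure D3:**
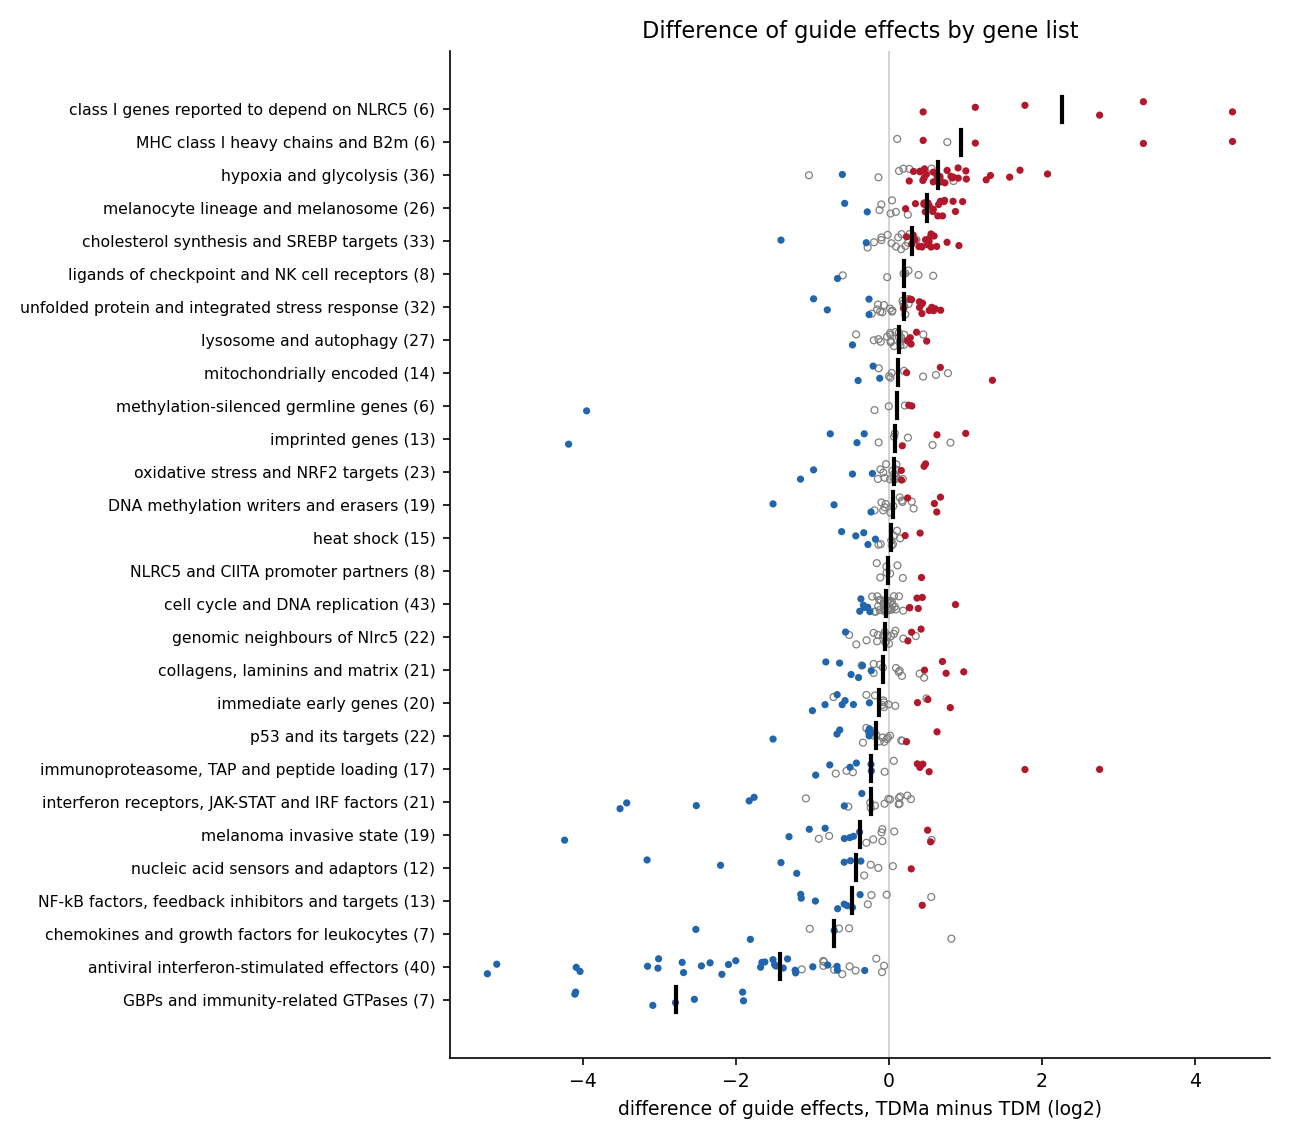
Difference of guide effects (log2, TDMa minus TDM) for the tested members of each gene list with at least 6 of them; the number tested is in parentheses. Red and blue points are members called higher or lower, open points are not called, and black bars are medians, running from -2.79 for the GBPs to 2.27 for the NLRC5-dependent class I genes.

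Pigment cell genes were mostly higher. Of 26 tested genes of the melanocyte lineage and melanosome, 18 were higher and 2 lower (76.9% called, against 22.7% of all genes, median 0.49). Their median effect was 0.47 in TDMa and 0.00 in TDM. Tyrp1, an enzyme of melanin synthesis, had 7656 and 7696 normalised counts in the TDMa sgNlrc5 libraries, 4887 and 4609.7 in TDMa sgScramble, 2733 and 2738 in TDM sgNlrc5 and 2834 and 2764 in TDM sgScramble, a difference of 0.73 ± 0.059 (adjusted p = 6.7e-10). Myo5a, the motor that carries melanosomes, was at 0.72 ± 0.066 and Pmel, the fibril protein of melanosomes, at 0.65 ± 0.043. Cdk2, at 0.87 ± 0.062, overlaps Pmel in the annotation, so the separate values of these neighbours are uncertain.

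Genes of the invasive melanoma state went down more often than up: of 19 tested, 8 were lower and 2 higher (median -0.39). In all 52.6% were called, against 22.7% of all genes, and 5 were lower without the intensity trend. Axl, a receptor tyrosine kinase of that state, had 639.7 and 620.0 normalised counts in the TDMa sgNlrc5 libraries, 1379.5 and 1356 in TDMa sgScramble, 1071 and 1077 in TDM sgNlrc5 and 1282 and 1329 in TDM sgScramble. It fell in both lines, with effects of -1.12 in TDMa and -0.28 in TDM, and the difference was -0.84 ± 0.085 (adjusted p = 4e-08). Fn1 (fibronectin) differed by -1.31 ± 0.090, Ccn1, a matrix signalling protein, by -1.04 ± 0.098 and Vim (vimentin) by -0.51 ± 0.045. Among 21 tested collagens, laminins and matrix genes, 4 were higher and 6 lower (47.6% called, against 22.7% of all genes), or 1 lower without the intensity trend. Plod2, a lysyl hydroxylase of collagen, was at 0.98 ± 0.096, and Col5a1, which fell in both lines, at -0.50 ± 0.085.

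Hypoxia and glycolysis genes, many of them targets of the factor HIF, were mostly higher: of 36 tested, 28 were higher and 1 lower (median 0.65). That is 80.6% called, against 22.7% of all genes. The median guide effect was 0.47 in TDMa, where 27 rose and 2 fell, and -0.13 in TDM, where 0 rose and 4 fell. Pdk1, whose product keeps pyruvate out of the mitochondria, had 1422 and 1366 normalised counts in the TDMa sgNlrc5 libraries, 497 and 509 in TDMa sgScramble, 840.3 and 792 in TDM sgNlrc5 and 933 and 1001 in TDM sgScramble. As each line was scaled, the TDMa sgNlrc5 libraries were the highest and the TDMa sgScramble libraries the lowest, and the difference was 1.71 ± 0.096 (adjusted p = 5.8e-13). Pgk1, Ldha and Pfkl, all enzymes of glycolysis, were at 0.83 ± 0.051, 0.67 ± 0.048 and 0.91 ± 0.068. Summed over the 36 genes, the normalised counts were 356841 and 343307 in TDMa sgNlrc5, 252996 and 261044 in TDMa sgScramble, 309353 and 301093 in TDM sgNlrc5 and 313714 and 332100 in TDM sgScramble.

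Cholesterol genes were higher in 17 and lower in 2 of 33 tested (57.6% called, against 22.7% of all genes, median 0.30). Insig1, a feedback regulator of sterol synthesis, had 1409.8 and 1456 normalised counts in the TDMa sgNlrc5 libraries, 700.3 and 677 in TDMa sgScramble, 826 and 837 in TDM sgNlrc5 and 721 and 788 in TDM sgScramble, a difference of 0.92 ± 0.094 (adjusted p = 4.4e-08). The desaturase genes parted: Scd2 was at 0.55 ± 0.044 and Scd1 at -1.41 ± 0.080, with Scd1 lower with sgNlrc5 in TDMa (949 and 916 against 2118 and 2064) and higher in TDM (1382 and 1378 against 1200.4 and 1123).

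**Figure D4:**
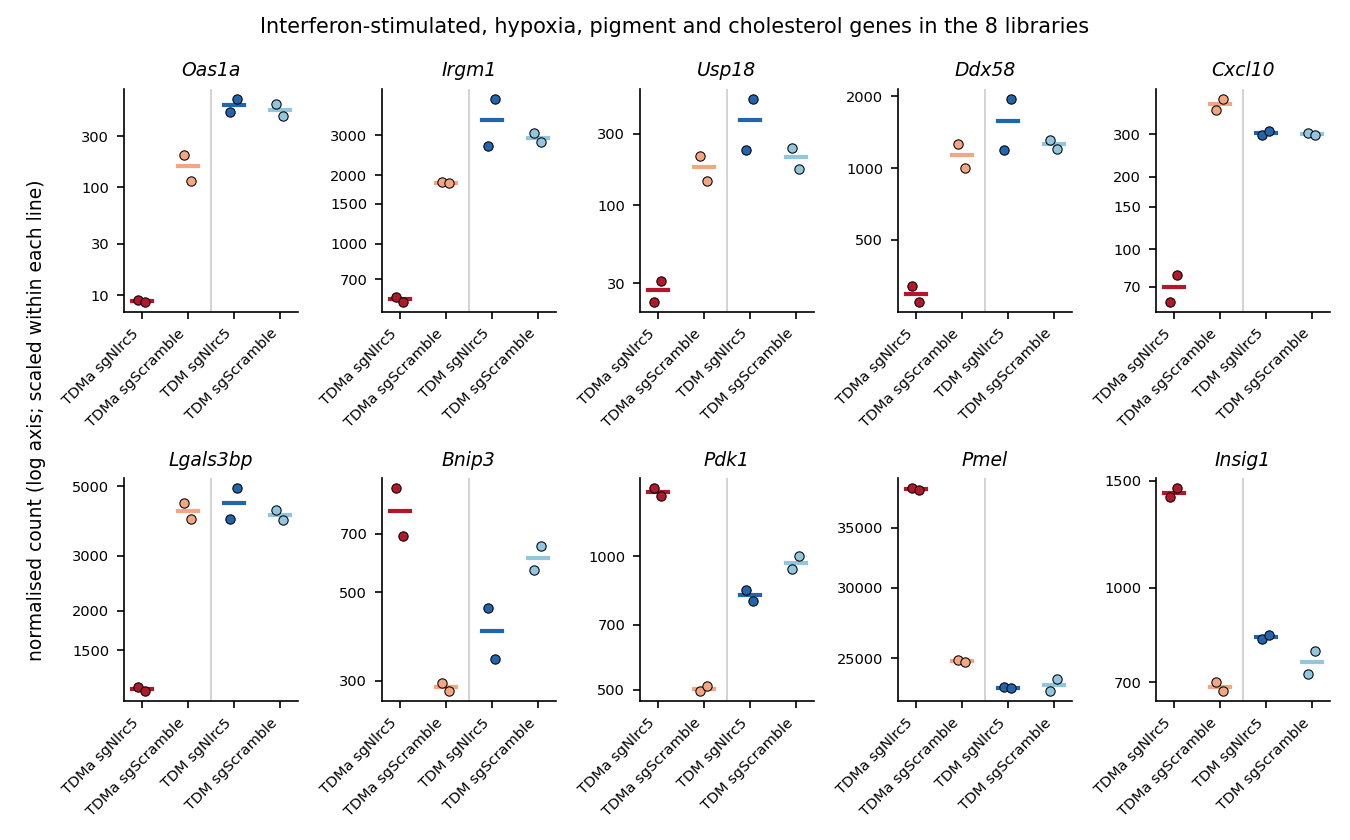
Normalised count (log axis) of 10 genes of the interferon, chemokine, hypoxia, pigment and cholesterol groups in the 4 groups, TDMa left of TDM and sgNlrc5 left of sgScramble; points are libraries (n = 2 per group), bars are means, and levels are scaled within a line. Oas1a to Lgals3bp were lowest in TDMa sgNlrc5, while Pdk1 was highest there (1422 and 1366 normalised counts) and lowest in TDMa sgScramble.

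Stress programmes gave mixed counts. Of 32 tested genes that answer unfolded proteins in the endoplasmic reticulum or translation stress, 13 were higher and 4 lower (median 0.19). That is 53.1% called, against 22.7% of all genes, and 1 was lower without the intensity trend. The chaperones and folding enzymes Dnajc3, Pdia6 and Hsp90b1 were at 0.68 ± 0.063, 0.61 ± 0.050 and 0.56 ± 0.050. Of 15 heat shock genes 2 were higher and 5 lower, or 3 lower without TDM sgNlrc5 replicate 1 or without either TDM sgScramble library, and 2 without the intensity trend. The 2 higher became 0 with equal sums and without TDMa sgNlrc5 replicate 1, either TDMa sgScramble or either TDM sgScramble library, and 4 without TDM sgNlrc5 replicate 1. Among the 5 lower was Hspa4, an Hsp110 chaperone, at -0.33 ± 0.048. In all, 46.7% of the heat shock genes were called, against 22.7% of all genes. Of 23 oxidative stress and NRF2 genes 4 were higher and 4 lower (34.8% called, against 22.7% of all genes), and 1 and 1 without the intensity trend. Single libraries moved these counts too: the higher ones were 2 without either TDMa sgNlrc5 library, TDMa sgScramble replicate 2 or either TDM sgScramble library, and the lower ones 2 without TDMa sgScramble replicate 2, TDM sgNlrc5 replicate 1 or TDM sgScramble replicate 1 and 1 without TDM sgScramble replicate 2. Among the called genes were Tkt, of the pentose phosphate pathway, at 0.48 ± 0.065 and the autophagy receptor Sqstm1 at -0.48 ± 0.048. Of 27 lysosome and autophagy genes 5 were higher and 1 lower (22.2% called, against 22.7% of all genes, and 2 higher without the intensity trend), with the sialidase gene Neu1 at 0.49 ± 0.081.

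Cell cycle genes showed no common direction, while p53 and immediate early genes were lower more often than higher (medians -0.18 and -0.14). Of 43 tested cell cycle and replication genes, 6 were higher and 6 lower (27.9%, against 22.7% of all genes, median -0.03). The 6 higher were 3 without either TDM sgScramble library, and 2 were higher and 2 lower without the intensity trend. Ccnd1, cyclin D1, was lower at -0.38 ± 0.063. Of 22 tested genes of p53 and its targets, 2 were higher and 7 lower (3 lower without the intensity trend). This is 40.9% called, and 50% of the immediate early genes below were called, against 22.7% of all genes. Trp53 itself was lower, with 1945 and 1950.2 normalised counts in the TDMa sgNlrc5 libraries, 3079 and 3169 in TDMa sgScramble, 3222 and 3064 in TDM sgNlrc5 and 3059.7 and 3227 in TDM sgScramble, a difference of -0.68 ± 0.065 (adjusted p = 1.2e-08). Of 20 tested immediate early genes, 3 were higher and 7 lower (4 lower without TDM sgScramble replicate 1 or without the intensity trend), with the ERK targets Etv5 and Dusp6 at -0.84 ± 0.090 and -0.68 ± 0.073 and the ERK phosphatase gene Dusp4 at 0.80 ± 0.063.

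DNA methylation is the subject of the series title, and of 19 tested writers and erasers of this mark, 4 were higher and 3 lower (36.8% called, against 22.7% of all genes, median 0.06). The higher ones were 2 without TDM sgNlrc5 replicate 1, the lower ones 1 without TDMa sgScramble replicate 1, and they were 2 and 1 without the intensity trend. Dnmt1, the maintenance methyltransferase, was at 0.24 ± 0.060, which did not pass without the intensity trend (adjusted p = 0.0865, the highest over its alternatives, whose lowest was 0.000542), and Gadd45a, a stress gene linked to demethylation, at -1.52 ± 0.30. Of 38 germline genes known to be silenced by methylation, 6 were tested, 2 higher and 1 lower, with 1 higher without TDM sgScramble replicate 2 and 0 without the intensity trend. The lower one was Rhox5, an X-linked homeobox gene, with 155 and 144 normalised counts in the TDMa sgNlrc5 libraries, 2151 and 2195 in TDMa sgScramble, 10166 and 9142 in TDM sgNlrc5 and 8886 and 9037 in TDM sgScramble, a difference of -3.96 ± 0.074 (adjusted p = 2.2e-23). The TDMa sgNlrc5 libraries stood far below the others. Of the 6 germline genes tested, 50% had a called difference, against 22.7% of all genes. Another 6 germline genes were listed in TDM alone and could not be compared.

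Of 13 tested imprinted genes, 3 were higher and 4 lower, beside 12% and 10.8% of all genes, and the higher ones were 1 without TDMa sgNlrc5 replicate 2, TDMa sgScramble replicate 1 or either TDM sgScramble library. Peg13, an imprinted noncoding RNA, had 15.7 and 17.4 normalised counts in the TDMa sgNlrc5 libraries, 326 and 357 in TDMa sgScramble, 341 and 336 in TDM sgNlrc5 and 347 and 375 in TDM sgScramble, a difference of -4.19 ± 0.21 (adjusted p = 4e-14). It lies within Trappc9 in the annotation, and reads of the pair may be shared. Peg10, a retrotransposon-derived gene, was at -0.77 ± 0.063 and Plagl1, a zinc finger gene, at 0.63 ± 0.057. Of 22 tested genomic neighbours of Nlrc5, 3 were higher and 1 lower (18.2%, against 22.7% of all genes). The higher ones were 0 without TDMa sgScramble replicate 2 or the intensity trend and 1 with quantile normalisation or equal sums, and the lower ones 2 without TDMa sgNlrc5 replicate 1. The lower one was Ccdc102a at -0.57 ± 0.15.

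Mitochondrial transcripts went both ways. Of 14 tested, the ribosomal RNAs mt-Rnr2 and mt-Rnr1 were at 1.35 ± 0.058 and 0.67 ± 0.063, while mt-Cytb, an mRNA of complex III, was at -0.40 ± 0.047. mt-Rnr2 had 7836 and 8066 normalised counts in the TDMa sgNlrc5 libraries, 3256 and 3209 in TDMa sgScramble, 3477 and 3600.5 in TDM sgNlrc5 and 3757 and 3595 in TDM sgScramble. In all 3 were higher and 3 lower, beside 12% and 10.8% of all genes. The lower ones were 1 without TDMa sgNlrc5 replicate 1, TDM sgScramble replicate 1 or the intensity trend, and the higher ones 5 without TDM sgScramble replicate 2. The labels do not say how ribosomal RNA was handled in the libraries. Other cell types left few transcripts: of 15 leukocyte markers 3 were tested, and Cd68, a lysosomal glycoprotein that melanoma cells may also express, was at 0.60 ± 0.12 and Lyz2 at -2.03 ± 0.49. Of 16 fibroblast, endothelial and epithelial markers 2 were tested, and 0 were called.

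Beyond the lists, the largest lower differences were of genes that stood at or near 0 in TDMa sgNlrc5. Itpripl2 (ENSMUSG00000095115) had 11.2 and 7.75 normalised counts in the TDMa sgNlrc5 libraries, 913 and 883 in TDMa sgScramble, 1657 and 1918 in TDM sgNlrc5 and 1897 and 1878 in TDM sgScramble, a difference of -6.36 ± 0.17 (adjusted p = 3.3e-20). The TDMa groups were far apart and the TDM groups overlapped. Echdc2, of the enoyl-CoA hydratase family, had 0 and 0 normalised counts in the TDMa sgNlrc5 libraries, 72.7 and 74.2 in TDMa sgScramble, 178 and 184 in TDM sgNlrc5 and 162 and 193 in TDM sgScramble. With 3 reads over the group as the bound for a count of 0, it was at least 47.1-fold lower with sgNlrc5 in TDMa. Lysmd2 had 0 and 0 normalised counts in the TDMa sgNlrc5 libraries, 52.6 and 57.1 in TDMa sgScramble, 61.9 and 40.7 in TDM sgNlrc5 and 20.3 and 15.9 in TDM sgScramble, at least 35.1-fold lower in TDMa, and Podxl2, a sialomucin, was at least 20.8-fold lower there.

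Qsox1, a sulfhydryl oxidase, and Pkp2, a desmosomal protein, rested on 1 and 3 reads in TDMa sgNlrc5, with ratios to TDMa sgScramble between 0.000145 and 0.0326 and between 0.00302 and 0.0436. Their TDM values were 282 and 279 against 314 and 329 and 243 and 272 against 325 and 369 normalised counts. Pcdhb2, of the clustered protocadherins, and Xlr3c, of an X-linked family with near-identical copies whose reads may be shared, differed by -4.51 ± 0.54 and -4.57 ± 0.17. Ccn2, a matrix protein of the invasive list, differed by -4.24 ± 0.69, though not past the threshold without the intensity trend. Of the 271 genes more than 2-fold lower, 249 had a called effect in TDMa alone, and 13 rested on at most 3 reads in TDMa sgNlrc5.

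Several of the largest higher differences beside H2-D1, H2-M3 and Psmb9 were of genes with few reads in TDMa sgScramble. Prxl2a, a peroxiredoxin-like protein, had 118 and 107 normalised counts in the TDMa sgNlrc5 libraries, 3.83 and 4.76 in TDMa sgScramble, 317 and 303 in TDM sgNlrc5 and 311 and 264 in TDM sgScramble, a difference of 4.31 ± 0.29 (adjusted p = 1.7e-11). As with H2-D1, and as each line was scaled, the TDMa sgScramble libraries stood low and the TDM libraries high with either guide. Wfikkn2, a secreted inhibitor of growth factors, had 194 and 195 normalised counts in the TDMa sgNlrc5 libraries, 13.4 and 5.71 in TDMa sgScramble, 74.2 and 89.0 in TDM sgNlrc5 and 46.7 and 59.4 in TDM sgScramble, a difference of 3.70 ± 0.42. Ggt1, which breaks down glutathione, differed by 2.49 ± 0.33, Card14, a scaffold of NF-kB signalling that overlaps Sgsh in the annotation, by 2.32 ± 0.32 and Spata13, an exchange factor for small GTPases, by 2.44 ± 0.58. Kbtbd6, an adaptor of a ubiquitin ligase, rested on 2 reads in TDMa sgScramble against 39 in TDMa sgNlrc5, a ratio between 5.51 and 182.

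Of the rest of the top 12, Osbp2 and Epm2a were less steady, and Smtnl2 is given with the genes of opposite signs below. Osbp2, an oxysterol-binding protein, was at 2.61 ± 0.83, and at 0.98 without TDMa sgScramble replicate 1, in which it was at 0 (adjusted p = 0.136). Its call also ended without TDMa sgNlrc5 replicate 2 (2.29), without TDM sgScramble replicate 1 (2.62) or 2 (2.60) and without the intensity trend, with adjusted p between 1.91e-06 and 0.296 over its alternatives. Epm2a, the glycogen phosphatase laforin, was at 2.27 ± 0.60, and its call ended without TDMa sgNlrc5 replicate 1 (1.78), without TDM sgScramble replicate 2 (1.57) and without the intensity trend.

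In 28 genes the guide effect passed in both lines with opposite signs. There the difference adds the sizes of both effects, so its call in all 28 is not a separate result. Smtnl2, of the smoothelin-like family, had 387 and 368 normalised counts in the TDMa sgNlrc5 libraries, 78.4 and 77.1 in TDMa sgScramble, 106 and 136 in TDM sgNlrc5 and 189.6 and 227 in TDM sgScramble. It rose in TDMa (2.26 ± 0.15) and fell in TDM (-0.78 ± 0.16), a difference of 3.05 ± 0.22 (adjusted p = 6.7e-11), and the groups of neither line overlapped. Bnip3, a mitophagy receptor induced by hypoxia, had 909.5 and 689.8 normalised counts in the TDMa sgNlrc5 libraries, 297 and 283 in TDMa sgScramble, 457 and 340.0 in TDM sgNlrc5 and 567 and 652 in TDM sgScramble, a difference of 2.07 ± 0.17 (adjusted p = 8.4e-10). Ak4, a mitochondrial adenylate kinase, differed by 1.56 ± 0.17, Cfap54, of motile cilia, by 1.07 ± 0.095 and Thoc2l, of the THO family of mRNA export, by 1.76 ± 0.14.

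The reverse, a fall in TDMa and a rise in TDM, was seen in Selenop, Gas7 and Ccdc40 among the 8 genes with the largest smaller effect. Selenop, a plasma carrier of selenium, had 135 and 138 normalised counts in the TDMa sgNlrc5 libraries, 314 and 264 in TDMa sgScramble, 902 and 906 in TDM sgNlrc5 and 539 and 508 in TDM sgScramble, a difference of -1.86 ± 0.15 (adjusted p = 3.3e-10). Gas7, a growth arrest gene that binds actin, differed by -1.59 ± 0.13, while Ccdc40, a gene of motile cilia, had a difference of -2.60 ± 0.39. Selenop, Gas7 and Ccdc40 overlap Ccdc152, Glp2r and Tbc1d16 in the annotation, so some of their reads may belong to those genes. Over all 28, 20 rose in TDMa and 8 fell. The count of 28 rests on few TDM calls: it was 96 without TDM sgNlrc5 replicate 2, 17 without TDM sgScramble replicate 1 and 7 without TDM sgScramble replicate 2.

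**Figure D5:**
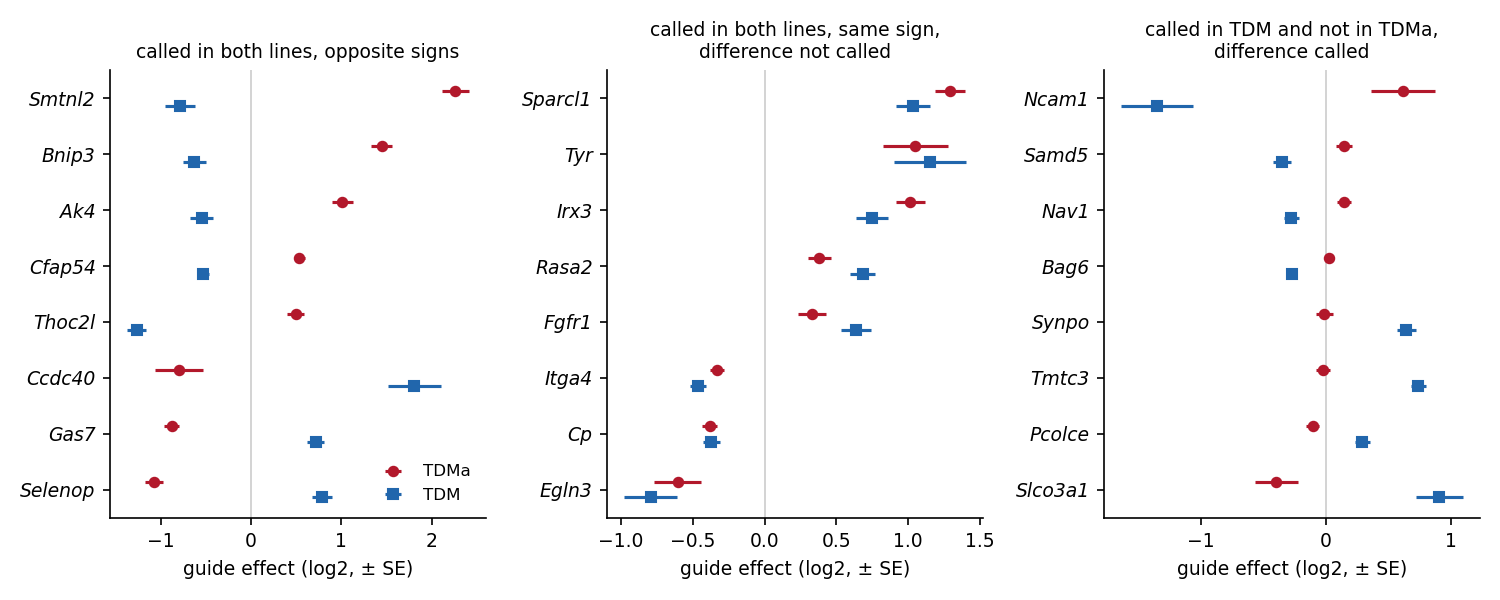
Guide effects (log2, points, with standard errors as bars) in TDMa (red circles) and TDM (blue squares) for genes called in both lines with opposite signs (left), in both with the same sign and no called difference (middle), and in TDM and not in TDMa (right). Smtnl2 was at 2.26 in TDMa and -0.78 in TDM, while Tyr was at 1.05 and 1.15.

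In 17 genes the effect passed in both lines with the same sign and the difference was not called, which does not show that the effects were equal. The count rests on few TDM calls. Without the intensity trend the 1 gene called in TDM had opposite signs, so these 17 did not pass in both lines. Tyr, tyrosinase, the rate-limiting enzyme of melanin, had 427 and 378 normalised counts in the TDMa sgNlrc5 libraries, 190.4 and 197 in TDMa sgScramble, 15.7 and 18.9 in TDM sgNlrc5 and 7.06 and 7.42 in TDM sgScramble. Its effect was 1.05 ± 0.23 in TDMa and 1.15 ± 0.25 in TDM, and the interval of the difference ran from -0.80 to 0.60. Cp, ceruloplasmin, a copper ferroxidase, fell in both lines, with effects of -0.38 ± 0.053 in TDMa and -0.37 ± 0.058 in TDM and an interval from -0.17 to 0.15.

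Irx3, a homeobox gene, and Egln3, a prolyl hydroxylase of the hypoxia pathway, had differences of 0.27 ± 0.15 and 0.19 ± 0.25. For Egln3 the effect was -0.61 in TDMa and -0.79 in TDM, a fall in both lines, while 27 of 36 tested genes of the hypoxia list rose in TDMa. Sparcl1, a matricellular protein, and Itga4, an integrin chain, did not pass at 0.26 ± 0.16 and 0.14 ± 0.072, but passed without TDM sgNlrc5 replicate 2 (0.47 and 0.24). Rasa2, a Ras GTPase-activating protein, stood at -0.30 ± 0.12, and at -0.36 and called without TDMa sgNlrc5 replicate 2 (adjusted p = 0.0476, with 0.0341 to 0.27 over its alternatives). Fgfr1, a growth factor receptor, stood at -0.30 ± 0.14 (adjusted p = 0.14).

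In 22 genes the difference was called and the guide effect passed in TDM alone. Tmtc3, an O-mannosyltransferase of the endoplasmic reticulum, had 1032 and 1041 normalised counts in the TDMa sgNlrc5 libraries, 1075 and 1033 in TDMa sgScramble, 1576 and 1644 in TDM sgNlrc5 and 979.9 and 950.4 in TDM sgScramble. The TDM sgNlrc5 libraries stood above the rest, and the difference was -0.76 ± 0.084 (adjusted p = 1.3e-07). Synpo, an actin-associated protein, was at -0.66 ± 0.10 and Pcolce, an enhancer of collagen processing, at -0.40 ± 0.078. Ncam1, a neural adhesion molecule, fell in TDM on low counts (5.62 and 8.52 against 15.9 and 23.3) and differed by 1.97 ± 0.38. Bag6, a chaperone of membrane proteins, Samd5 and Nav1 were at 0.29 ± 0.054, 0.50 ± 0.097 and 0.42 ± 0.084, and Slco3a1, a transporter of organic anions, at -1.30 ± 0.25. The count of 22 was 58 without TDM sgNlrc5 replicate 2 and 11 without TDM sgScramble replicate 1.

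The difference was not called in 8882 genes. For 7313 of them the 95% interval lay within 1 log2 unit on either side of 0, and for 5099 within 0.5, so for these a difference of that size lay outside the interval. The interval reached a median of 0.26 to either side of the difference. In simulated counts, 82.8% of differences of log2 1 and 30.3% of differences of log2 0.5 were called. Few genes were changed there and 146 were called in all, so the adjusted threshold was stricter than in the data, where 2610 were called. These rates therefore do not give the share detectable here. Of the 2610 called genes, 1128 had a difference over log2 0.5 in size and 404 over log2 1.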

How the data were processed

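RNA-seq was read in 8 libraries of cultured B16F10 lines. Per the labels' protocols, Sepasol was used for RNA and the NEBNext Ultra II Directional kit for libraries. Per the submitters' processing notes, the tools included STAR 2.7.10a, DESeq2 1.36.0 and FastQC 0.12.0, with GRCm39 as the build. Not given in the sources used here are annotation, counting tool and strand setting. The authors deposited log2(normalised count + 1) values, in 1 table per line, so only differences within a line were compared.

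Values were fitted with limma 3.58.1 in R 4.3.3: a mean per group, library weights per line, an intensity trend, a two-sided test and Benjamini-Hochberg adjustment over the 11492 genes whose normalised counts averaged 10 or more in each line. A call is an adjusted p under 0.05. Fold changes are on the log2(value + 1) scale, which understates changes of low genes. Read numbers were recovered from the steps of the values, all whole within 0.1, and a group at 0 was bounded by 3 reads. Ratios on 1 to 3 reads carry 95% exact intervals, which cover counting error only. The procedure was tested on simulated data.

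The members and the gene lists were chosen with earlier results of these data known. Genes named in the text were the 12 largest called differences in each direction whose library pairs did not overlap between lines and whose mean was 50 or more in a group, up to 4 members per list with the smallest p, the class I, loading and partner genes, and 8 genes each of those called in both lines or in TDM alone. Genes named with their values below that follow no rule were chosen after their values were seen. Where a gene overlaps another in the annotation (among those named, also B2m with Patl2, Cxcl10 with Art3, Cp with Hps3, Itga4 with Cerkl, Psme1 with Emc9, Erap1 with Cast, Pdia3 with Catsper2, Pdia6 with Atp6v1c2, Ccnd1 with LTO1, Plagl1 with Hymai, Rfxank with Nr2c2ap and Nfyb with Hcfc2), its value is uncertain. The same holds where the neighbour is a predicted or small RNA gene, as at Nlrc5. The alternatives were another pseudocount, filter, scaling, variance model or weighting, a replicate block, each line fitted alone, and each library left out. A few genes that this rule names are not reported here.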

Additional observations from a re-analysis of the deposited data

Results flagged for a closer look

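The guide effect differed between the lines, by the test of the difference itself, in 2610 of 11492 genes.

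The 8 genes given here were picked because the effect passed in both lines with opposite signs and the difference was called. Those calls are therefore the rule of choice and not a separate result. The difference was 3.05 for Smtnl2, 2.07 for Bnip3, 1.76 for Thoc2l, 1.56 for Ak4 and 1.07 for Cfap54, which rose in TDMa and fell in TDM. It was -1.59 for Gas7, -1.86 for Selenop and -2.60 for Ccdc40, which fell in TDMa and rose in TDM.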

How the results depend on the processing

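Of 174 named genes, 129 kept their call in every alternative in which they were tested. The alternatives were 10 that kept the 8 libraries and each of the 8 libraries left out. With a mean of at least 50, 148 of the 174 were tested, and Nlrc5 was not. No direction reversed among the 143 called. Under quantile normalisation 4 of the 2610 called genes had the other sign. Scaling shifted the median difference by at most -0.04.

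Without the intensity trend 1186 genes were called, 586 higher and 600 lower. By line, 1127 then had a called effect in TDMa alone, 0 in TDM alone, 0 in both with the same sign, 1 with opposite signs and 58 in neither, and 1 gene was called in TDM. Lower members then numbered 4 sensors, 18 antiviral effectors, 4 NF-kB genes, 5 invasive genes, 1 matrix gene, 2 heat shock genes, 4 immediate early genes and 3 p53 genes, and higher ones 2 cell cycle and 2 lysosome genes. The cause was not tested. Small counts in the less frequent direction also moved. The 1 higher sensor was lost in several alternatives and the 1 lower hypoxia gene without TDM sgScramble replicate 2. The 2 lower melanocyte, 2 higher invasive, 2 lower cholesterol and 2 higher p53 genes became 1 without TDM sgScramble replicate 1, among others. A mean of at least 50 left 230 genes over 2-fold and 4 lower GBPs, on fewer genes tested. With voom on recovered reads, 2610 genes were called, 2554 of them shared, and 13 had an effect in TDM alone. With each line fitted alone, 40 genes were called in TDM, 7 were in TDM alone, 8 in both with the same sign and 15 with opposite signs.

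Leaving out 1 library gave 1779 to 2723 called genes and 34 to 246 called in TDM. The classes ranged from 11 to 58 (TDM alone), 3 to 22 (both, same sign), 7 to 96 (opposite signs) and 65 to 294 (neither). The counts ranged from 3 to 5 for lower heat shock genes, 4 to 7 for lower immediate early genes and 3 to 7 for higher cell cycle genes. Where this left 1 library in a group, it was assumed to vary like the others. Same-numbered libraries deviated together with r of 0.02 in TDMa and -0.02 in TDM, so no common deviation was seen over genes. With 2 libraries per group this cannot tell whether they shared a culture or preparation, which the labels do not say. With a replicate block 2508 genes were called, 2458 of them shared. With 2 libraries per group the interval reached a median of 0.26 to either side.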

Other observations

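Gene families outside the lists, picked by symbol after their values were seen, are given as values. Of 15 tested histone genes 7 had a lower and 0 a higher difference (median -0.36), with H2bc21 at -2.81 and H1f2 at -1.37. Of 21 semaphorins and plexins, guidance cues and their receptors, 6 were lower and 1 higher, with Sema4g at -3.0 and Sema3g at -2.14. Of 10 tubulin genes 4 were lower and 1 higher, with Tubb3, a tubulin of neurons, at -1.64. These shares stand beside 10.8% of all genes called lower.

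Of 17 V-ATPase subunits, parts of the proton pump of lysosomes and melanosomes, 7 were higher and 2 lower (median 0.24). Of 52 genes of Rab GTPases and their partners, 11 were higher and 4 lower, with Rab27a and Rab38, which serve melanosome transport, at 0.96 and 0.84. All genes were called higher in 12%.

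In other families calls were mixed or few, beside 12% of all genes called higher and 10.8% lower. Of 19 protocadherins 4 were higher and 5 lower, with Pcdhb3 at -3.55 and Pcdhgb2 at 1.63, and the clustered genes share stretches of sequence, so their separate values are uncertain. Of 73 cytosolic ribosomal protein genes 3 were higher and 8 lower. Of 315 zinc finger genes of the Zfp series 21 were higher and 11 lower. Of 33 TRIM genes 4 were higher and 5 lower, with Trim12c at -3.71 and Trim67 at 2.0.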
